A study of Mus musculus with 6 samples.

Results

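Peaks of DNA methylation whose summit lay more than 500 bp and up to 2000 bp downstream of an annotated gene start were examined in the hippocampus of juvenile mice. They came from MeDIP-seq: an antibody against 5-methylcytosine pulls down sheared genomic DNA, the captured fragments are sequenced, and stretches rich in methylated cytosine gather enough reads to be called as peaks. Male C57BL/6 pups were injected subcutaneously, 2 times each on postnatal days 4 and 7, and the hippocampus was taken on postnatal day 21. The 3 ethanol pups received 2.5 g/kg ethanol in 0.15 M NaCl and the 3 saline pups received 0.15 M saline. Strain, sex, tissue and age were common to both groups, no engineered allele is named in the labels, and the pups are described as matched littermates without a record of which shared a litter, so p-values measure the spread between these 6 pups. The members were the promoter-class peaks of the 6 deposited lists with a summit to start distance above 500 bp. They numbered 2026 peaks, which merged into 684 regions of the 48853 regions in the whole series, at 680 genes, of which 673 were matched to the reference, 3.20% of its 21000 coding genes. Of all regions of the series, 460 came from promoter-class peaks more than 500 bp upstream and 400 from those within 500 bp of a start. Median region length was 613 bp, with a range of 480 to 1882 bp.

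In vertebrate genomes cytosine is methylated mainly in CpG dinucleotides. Active CpG island promoters are usually kept free of methylation around the start of transcription, while the exons and introns that follow are commonly methylated, so the stretch just downstream of a start is where an unmethylated promoter gives way to a methylated gene body. Methylation of a promoter is associated with silence, as in imprinted genes and in genes used only in the germ line, whereas methylation inside a transcribed gene occurs in active genes too. Immunoprecipitation responds to the number of methylated CpGs in a fragment, so CpG-poor sequence gives little signal whatever its methylation. Where a library has no peak, its signal stayed under the threshold of the caller, which is not the same as an absence of methylation. The lists give no read numbers, so the depth of each library is unknown.

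Sequence around the summit is shown for 9 regions: 7 with a peak in all libraries of 1 treatment and none of the other, since these carry the comparison of treatments, then the 2 that ranked highest in all 6 libraries. Each is 200 bases of the mm10 genome (GRCm38 RefSeq sequence) centred on the median summit, written 5′ to 3′ on the strand of the gene, with every CpG in capitals. Gm13152, a zinc finger gene named Zfp982 in the reference, gave chr4:147176367-147176566 (plus strand, annotated intron, 6 CpGs). Tcf7l1, a transcription factor of Wnt signalling, gave chr6:72787174-72787373 (minus strand, intron 3, 8 CpGs). Cdc14b, a protein phosphatase, gave chr13:64273061-64273260 (minus strand, intron 1, 2 CpGs). BC027072, whose product is annotated as a C2orf71 homolog, gave chr17:71751349-71751548 (minus strand, coding exon 1, 9 CpGs). Alpi, the intestinal alkaline phosphatase, gave chr1:87099660-87099859 (minus strand, coding exon 8, 5 CpGs). Those 5 were held by ethanol libraries alone. I830012O16Rik, annotated as an interferon-induced protein with tetratricopeptide repeats, gave chr19:34608433-34608632 (plus strand, intron 1, 2 CpGs). Snrpn and Snurf, imprinted genes expressed from the paternal chromosome out of a shared start, gave chr7:60004168-60004367 (minus strand, intron 1, 7 CpGs). Both were held by saline libraries alone. Erdr1, annotated as an erythroid differentiation regulator, gave chrY:90785879-90786078 (plus strand, summits in coding sequence or an adjoining intron, 29 CpGs). Kcnv2, a silent subunit that modifies voltage-gated potassium channels, gave chr19:27323350-27323549 (plus strand, coding exon 1, 17 CpGs). The windows held by 1 treatment had between 2 and 9 CpGs, and the 2 held by every library had 17 and 29. Those 2 were chosen for their rank by q, and immunoprecipitation responds to the number of methylated CpGs. The contrast therefore does not set the regions of 1 treatment apart.
Gm13152: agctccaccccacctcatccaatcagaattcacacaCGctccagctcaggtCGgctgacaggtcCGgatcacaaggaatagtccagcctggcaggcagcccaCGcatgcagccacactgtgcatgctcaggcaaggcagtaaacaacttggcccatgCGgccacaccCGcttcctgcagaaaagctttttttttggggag
Tcf7l1: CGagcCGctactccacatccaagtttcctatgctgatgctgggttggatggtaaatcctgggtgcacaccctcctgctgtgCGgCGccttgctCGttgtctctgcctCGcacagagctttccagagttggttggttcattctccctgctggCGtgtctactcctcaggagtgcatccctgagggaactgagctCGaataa
Cdc14b: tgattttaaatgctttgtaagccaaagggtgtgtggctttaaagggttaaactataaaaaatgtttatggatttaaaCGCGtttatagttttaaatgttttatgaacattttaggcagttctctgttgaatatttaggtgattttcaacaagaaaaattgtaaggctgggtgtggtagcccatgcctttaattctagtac
BC027072: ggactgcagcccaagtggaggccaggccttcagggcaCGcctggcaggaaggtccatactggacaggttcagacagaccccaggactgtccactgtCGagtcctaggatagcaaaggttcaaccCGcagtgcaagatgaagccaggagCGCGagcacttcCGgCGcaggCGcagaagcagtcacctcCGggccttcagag
Alpi: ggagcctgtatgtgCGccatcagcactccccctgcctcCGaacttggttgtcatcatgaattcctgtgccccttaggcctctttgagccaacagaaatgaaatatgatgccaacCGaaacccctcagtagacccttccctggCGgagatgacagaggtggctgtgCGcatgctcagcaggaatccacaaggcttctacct
I830012O16Rik: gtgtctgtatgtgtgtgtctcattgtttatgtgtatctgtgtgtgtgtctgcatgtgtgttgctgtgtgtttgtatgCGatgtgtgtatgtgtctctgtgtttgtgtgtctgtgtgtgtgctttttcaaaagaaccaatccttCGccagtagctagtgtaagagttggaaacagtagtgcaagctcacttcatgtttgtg
Snrpn and Snurf: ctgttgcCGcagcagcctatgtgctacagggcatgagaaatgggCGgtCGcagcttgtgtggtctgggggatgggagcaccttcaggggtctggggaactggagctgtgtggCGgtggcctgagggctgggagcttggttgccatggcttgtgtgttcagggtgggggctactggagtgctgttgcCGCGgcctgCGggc
Erdr1: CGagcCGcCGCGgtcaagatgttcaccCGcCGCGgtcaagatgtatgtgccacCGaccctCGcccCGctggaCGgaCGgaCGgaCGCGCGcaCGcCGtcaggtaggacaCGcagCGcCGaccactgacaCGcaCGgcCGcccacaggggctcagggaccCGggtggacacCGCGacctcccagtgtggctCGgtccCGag
Kcnv2: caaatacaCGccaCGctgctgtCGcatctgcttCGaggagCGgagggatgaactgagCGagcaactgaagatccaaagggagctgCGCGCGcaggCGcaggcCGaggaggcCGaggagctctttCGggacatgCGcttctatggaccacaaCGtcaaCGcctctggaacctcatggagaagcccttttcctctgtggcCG

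Promoter-class peaks were unevenly spread around the start, and the downstream side held more of them than the upstream side in every library. Mean counts in bins of 250 bp were lowest just before the start, at 15 peaks per library between 500 and 250 bp upstream. They were highest just after it, at 86.5 peaks in the bin from 0 to 250 bp. From 500 bp onward the mean fell to 41.5 peaks between 1000 and 1250 bp, and then stood at 70.2 peaks between 1500 and 1750 bp and 66.7 peaks between 1750 and 2000 bp. Clustered protocadherin genes, described below, made up part of these last bins, which held 52 and 59.5 peaks without them. The downstream class had 337.7 ± 64.4 peaks per library and the upstream class, over a window of equal length, 205.7 ± 55.1 (SD, n = 6 libraries). The difference was 132 ± 14.4 peaks, lay between 113 and 146, and was positive in 6 of 6 libraries (two-sided exact sign-flip permutation test within libraries, p = 0.0312, adjusted p = 0.0375 over 6 class comparisons). With 6 libraries 0.0312 is the smallest p this test can give.

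**Figure D1:**
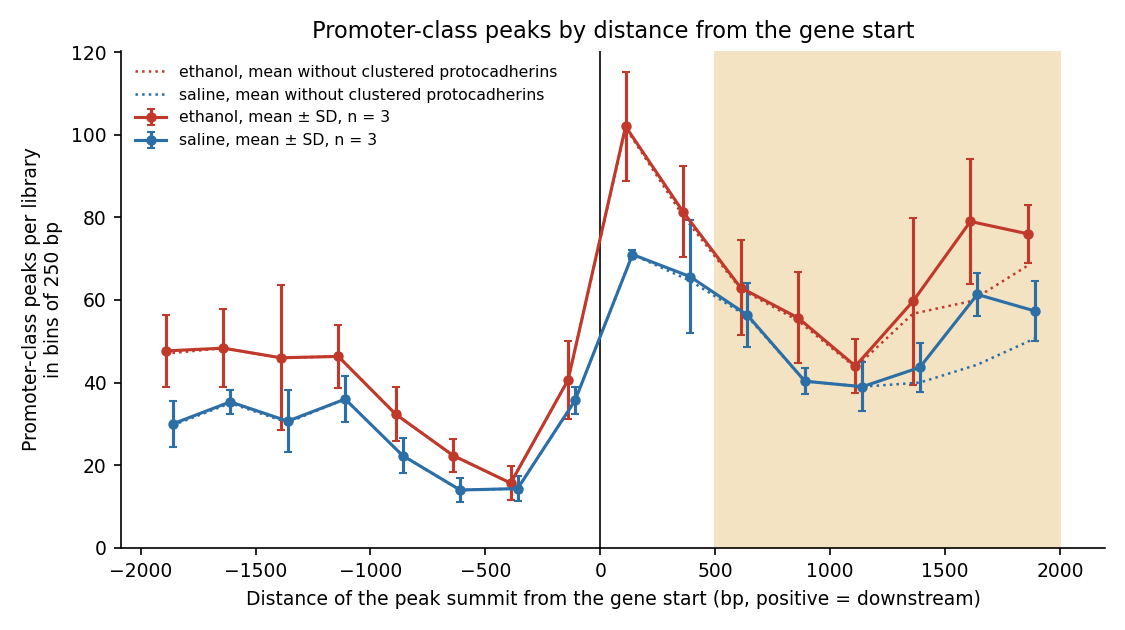
Promoter-class peaks per library in bins of 250 bp (vertical axis) against the distance of the summit from the gene start in bp (horizontal axis, positive downstream), as the mean ± SD of 3 ethanol (red) and 3 saline (blue) libraries, with dotted lines for means without the clustered protocadherins. The shaded stretch holds the downstream peaks, whose mean count over the 6 libraries was 41.5 in the bin from 1000 to 1250 bp and 70.2 in the bin from 1500 to 1750 bp.

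Just inside the lower limit was a peak at Capns2, a calpain small subunit gene, with its summit 503 bp from the start and a fold enrichment of 5.64, and just outside was one at Ffar3, a receptor for short-chain fatty acids, at 500 bp and 8.26-fold. Just inside the upper limit was a peak at Dnahc6, a dynein heavy chain gene, at 2000 bp and 8.95-fold. Just outside was one at Grhl3, a transcription factor of epithelial development, at 2001 bp and 6.88-fold. Fold enrichment here and below is the authors' ratio of the summit pileup to its local background, a value of the single peak that is not scaled between libraries.

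Downstream peaks lay on coding sequence far more often than upstream peaks. Between 44.8% and 55.8% of a library's downstream peaks had their summit in annotated coding sequence (mean 49.4% ± 4.41), against 5.56% to 8.59% of its upstream peaks (mean 7.14% ± 1.36; SD, n = 6). The difference of 42.3 percentage points was positive in 6 of 6 libraries (exact sign-flip permutation p = 0.0312, adjusted p = 0.0375). For the gene body peaks that begin beyond 2000 bp the share was between 18.96% and 22.1%. Around all 25999 coding starts of the reference, coding sequence makes up 9.81% of the bases more than 500 and up to 2000 bp downstream, 1.68% of those as far upstream and 11.3% of those within 500 bp. The windows thus differ in annotation before any peak is counted, so the test does not set the peaks apart from their windows. Of the peaks within 500 bp, 34.1% to 41.5% in a library had the summit in coding sequence (mean 38.2%). In each window the share of peaks was above the share of bases.

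Each region was given the feature in which its downstream summits fell most often, and ties went to the first by alphabet (coding before intron). Counted so, 303 of the 684 regions (44.3%) were in coding sequence and 325 (47.5%) in an intron. A further 20 lay in untranslated exons, 23 in other exons and 13 outside annotated genes. Placed in their own annotated transcript, 297 regions were in a coding exon and 325 in an intron. Of the intronic ones 243 (74.8%) were in intron 1 and 56 in intron 2. Of the exonic ones 156 were in exon 1, and 101 of these belonged to genes with a single exon, such as olfactory receptors and Pcdhb genes. Another 60 lay in the last exon of a gene with several. Transcripts of 13 regions were not in the reference, and those of 18 were placed elsewhere in it, which touches several multicopy genes named below.

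Downstream peaks held more CpG than upstream peaks and less than those at the start itself. The median CpG density was 3.31 ± 0.204 per 100 bp in downstream peaks, 4.05 ± 0.214 in peaks within 500 bp of the start, and 1.97 ± 0.314 in upstream peaks (SD of the library medians, n = 6). The downstream class was higher than the upstream class by 1.34 ± 0.256 in 6 of 6 libraries, and the difference from the class within 500 bp was -0.750 ± 0.138, lower in 6 of 6 (exact sign-flip permutation p = 0.0312 and adjusted p = 0.0375 for each). In the reference windows the medians were 1.40 per 100 bp downstream, 4.40 within 500 bp and 1.07 upstream. The windows thus stand in the same order before any peak is counted, so these tests do not set the peaks apart from their windows. Peaks of both outer classes were denser in CpG than their window, upstream peaks at 1.97 against 1.07. Peaks within 500 bp were near theirs. Repeats took a smaller part of downstream peaks: the median soft-masked share, the part of a peak that the reference marks as repetitive, was 6.44% ± 1.30, against 33.8% ± 5.0 in upstream peaks. It was lower in 6 of 6 libraries (exact sign-flip permutation p = 0.0312, adjusted p = 0.0375). Peaks within 500 bp were also low, at 5.65%, while the median over all peaks of a library was 50.4% to 62.3%. In the reference windows the medians were 15.9% downstream, 8.99% within 500 bp and 22.7% upstream. The direction of the repeat test was thus also that of the windows. Downstream peaks were below their window in repeat share and upstream peaks above theirs, which was not tested.

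**Figure D2:**
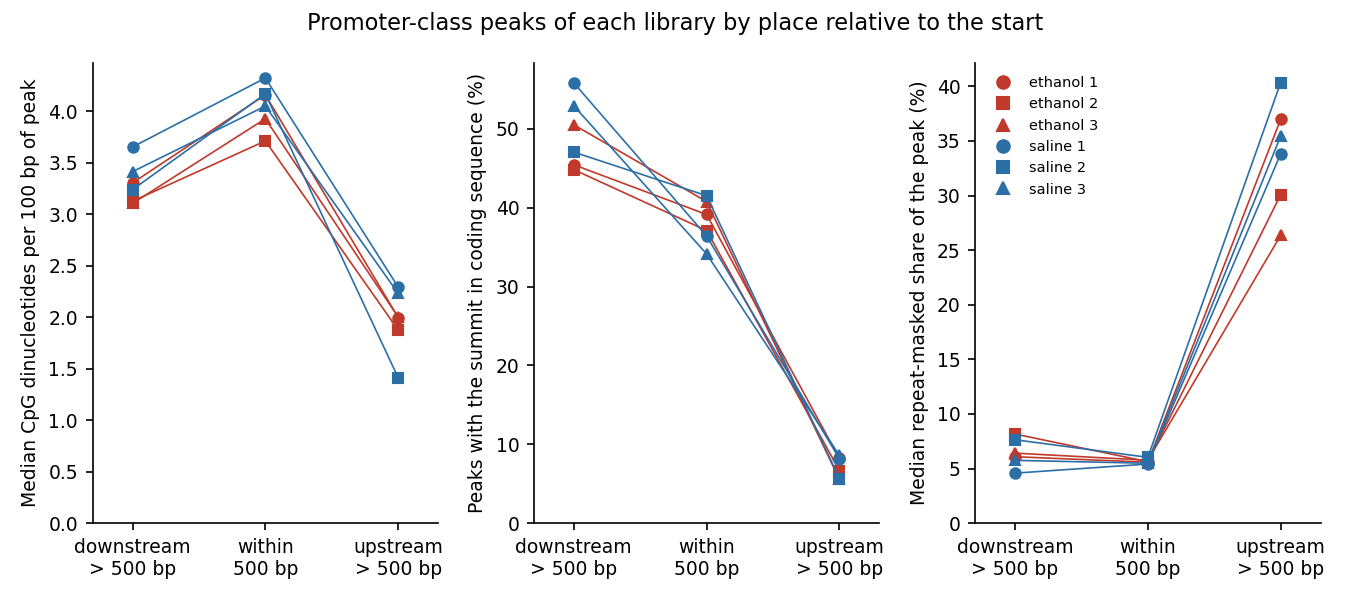
For each library (red circles, squares and triangles for ethanol 1 to 3, blue for saline 1 to 3), the median CpG density of its peaks, the share with the summit in coding sequence and the median repeat-masked share are plotted for peaks more than 500 bp downstream, within 500 bp and more than 500 bp upstream of the start; lines join values of a library. In all 6 libraries the downstream class had the higher CpG density and coding share, and the lower repeat share, of the 2 outer classes.

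The classes were closer in strength. The median peak of the downstream class stood at percentile 47.7 ± 2.18 of its own list by fold enrichment and that of the upstream class at 44.5 ± 2.61. The difference of 3.15 ± 3.61 was positive in 4 of 6 libraries (exact sign-flip permutation p = 0.125, adjusted p = 0.125). When each list was limited to its 18922 most significant peaks the difference was 4.58 in place of 3.15 (exact sign-flip permutation p = 0.0312, not adjusted).

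Few genes had promoter-class peaks of the other kinds. In all 407 had one within 500 bp and 462 one upstream, beside 21000 coding genes in the reference. Genes with a downstream peak also mostly had no other promoter-class peak, which by itself does not set them apart. Of the 680 genes, 611 (89.9%) were not annotated to a peak within 500 bp or upstream in any library. A peak within 500 bp was also found at 64 of the 680, a larger share than 407 of 21000 coding genes. An upstream peak was found at 5 of the 680, a smaller share than 462 of 21000. A gene whose summits fell on both sides of 500 bp in different libraries counts in both classes, as at Peg10 below. Neither share was tested. Starts of the genes with a downstream peak were CpG-poor: from 250 bp before to 50 bp after the start the median density was 2.33 per 100 bp for the 684 starts with a downstream region, against 4.32 for all coding starts. Starts with a peak within 500 bp had a median of 2.66 and those with an upstream peak 3.32. These differences were not tested.

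The regions differed in how many libraries held them. A library was counted as holding a region if any of its peaks overlapped it by 1 bp or more. All 6 libraries held 172 regions (25.1%, against 21.0% of all regions of the series), and 195 (28.5%, against 34.7%) were held by 1 library. Regions held by all 6 had a median CpG density of 4.07 per 100 bp and 58.7% lay in coding sequence. Those held by 1 library had 2.11 per 100 bp and 30.8% in coding sequence. Of the 303 coding regions 33.3% were held by all 6 libraries, and of the 325 intronic regions 17.5%.

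The 10 regions with a member peak in all 6 libraries and the best rank of their weakest peak by q mixed single-copy and multicopy genes. Erdr1 had the strongest peaks, with pileups of 1164 to 1607 tags in the ethanol libraries and 1265 to 1441 in the saline libraries, at 14.3-fold to 15.4-fold and 533 to 546 bp from the start. Its summits fell in coding sequence in 3 libraries and in an adjoining intron in the other 3, and 28.1% of the region was repeat-masked. Kcnv2 followed, with folds of 14.9, 14.7 and 13.2 in ethanol libraries 1 to 3 and 14.2, 14.98 and 13.7 in saline libraries 1 to 3, and summits 765 to 890 bp from the start. Zfp768, a zinc finger gene, ran from 11.2-fold to 14.3-fold in its last exon. Ankrd9, an ankyrin repeat gene, ran from 11.96-fold to 14.2-fold, also in its last exon, and Pdha2, the testis form of a pyruvate dehydrogenase subunit, from 13.1-fold to 14.3-fold in its only exon. Kcnv2, Zfp768, Ankrd9, Pdha2 and the protocadherin Pcdhgb1 (11.1-fold to 12.7-fold) lay in sequence with 0% to 3.58% of bases masked as repeats. The other 4 were Olfr1388, the chemokine gene Ccl21b, Gm13247, which the reference names Zfp981, and Gm6902, annotated as a kinase-like gene. They belong to multigene families, and 40.9% to 100% of their regions was repeat-masked. Ccl21b alone accounted for 4 downstream regions on chromosome 4, and which copy its reads came from is uncertain, because the sources used here do not say how reads with several matches were treated.

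The clustered protocadherins were the gene family with the largest share of members among the 24 lists examined. They encode cell adhesion proteins of neurons, from 3 neighbouring clusters on chromosome 18 in which each cell chooses a few promoters, and the alpha and gamma genes each contribute a long variable exon that is joined to shared constant exons. Of 59 members 39 (66.1%) had a downstream peak, against 3.20% of all coding genes, while 3 had a peak within 500 bp and 1 an upstream peak. All 39 regions lay in coding sequence and 38 were placed in exon 1 of their own transcript. By cluster, 12 of 15 alpha genes, 18 of 22 beta genes, 2 of 12 gamma-A genes, 7 of 7 gamma-B genes and 0 of 3 gamma-C genes had a downstream peak. The alpha genes include Pcdha4-g, which the reference names Gm37013. The A and B genes of the gamma cluster are interspersed along the chromosome. Of the gamma-A genes, only Pcdhga3 had a peak of another class, 490 bp from the start in 1 ethanol library.

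Protocadherin summits lay toward the far end of the window. The median distance from the start was 1539 bp in alpha genes, 1719 bp in beta genes and 1708 bp in gamma-B genes. The exceptions were Pcdhb1, with downstream summits at 520 and 555 bp, Pcdhga2 at 763 and 983 bp, and Pcdhga12 at 1209 bp. These 3 genes were singled out after their values were seen. Pcdhga2 and Pcdhga12 were also the only gamma-A genes with a downstream peak, at 4.94-fold to 5.56-fold and in 2 and 1 libraries, all ethanol. Median CpG density of the regions was 6.58 per 100 bp in alpha genes, 4.802 in beta genes and 7.80 in gamma-B genes, above the 3.10 to 3.65 of downstream peaks as a class. The best ranked in all 6 libraries were Pcdhgb1, Pcdha1, Pcdhgb2 and Pcdha9. Pcdha1 had folds of 12.6, 10.4 and 10.2 in the ethanol libraries and 9.00, 10.3 and 10.7 in the saline libraries, and Pcdha9 had 10.7, 13.4 and 9.41 in the ethanol libraries and 11.4, 11.2 and 11.9 in the saline libraries, so that both groups overlapped.

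Protocadherin peaks made up 7.17% to 10.2% of the downstream peaks of a library. In 22 of the 39 genes all 6 libraries had a downstream peak. The ethanol libraries had downstream peaks at 31, 32 and 31 protocadherin genes and the saline libraries at 27, 26 and 30, counts that did not overlap. The ethanol lists were also longer, with 23141, 34904 and 28386 peaks against 18922, 22703 and 20776 in the saline lists. In lists of equal length the counts were 28, 27 and 26 in ethanol and 27, 25 and 29 in saline libraries, which overlapped.

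**Figure D3:**
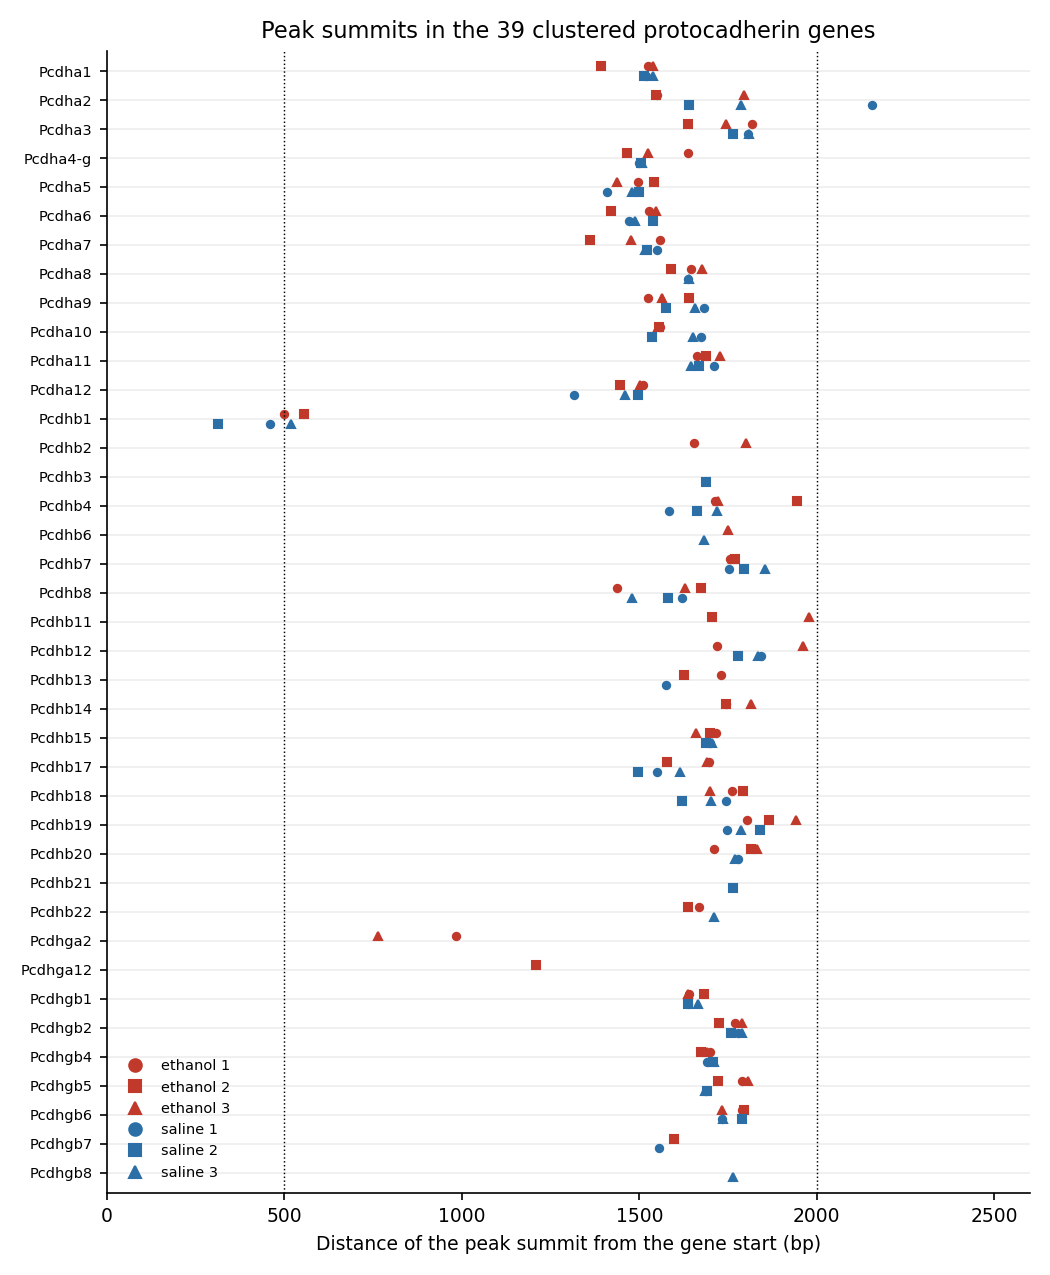
Distance of each peak's summit from the gene start in bp (horizontal axis) for the 39 clustered protocadherin genes with a downstream peak (rows), with 1 symbol per library (red for ethanol 1 to 3, above the row's line; blue for saline 1 to 3, below it). Dotted lines mark 500 and 2000 bp, and most summits sit between 1317 and 1978 bp whatever the treatment.

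Imprinted genes, which are expressed from 1 parental chromosome and carry methylation on the other, were another list with a share above that of all coding genes. Of 41, 9 (22.0%) had a downstream peak in at least 1 library, at 9 regions with a median CpG density of 7.92 per 100 bp. The number of imprinted genes with a downstream summit was 5, 5 and 4 in the ethanol libraries and 6, 8 and 7 in the saline libraries. Snrpn and Snurf share their peaks, and counted as 1 locus they left 5, 5 and 4 in ethanol and 5, 7 and 6 in saline libraries, which overlapped. In lists of equal length the loci numbered 5, 4 and 2 in ethanol and 5, 6 and 6 in saline libraries. The counts depend on where the summit fell. At Peg10, a gene derived from a retrotransposon, all 6 libraries had a peak, with summits at 529, 482 and 499 bp in ethanol and 492, 507 and 498 bp in saline, on both sides of the 500 bp limit. At Grb10, an adaptor of insulin signalling, they lay between 1813 and 2248 bp in ethanol and between 1999 and 2162 bp in saline libraries, on both sides of the 2000 bp limit. Impact, a regulator of translation, had summits at 1428 to 1500 bp in ethanol and 1468 to 1550 bp in saline libraries, at 9.53-fold to 12.2-fold. Slc38a4, an amino acid transporter, kept its summit between 903 and 927 bp in all 6. Gnas, which encodes a G protein alpha subunit, had 2 regions, with downstream summits near 551 to 612 bp and 854 to 973 bp. Zrsr1, a splicing factor gene, had a peak in all 3 ethanol libraries and in 1 saline library.

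At Cdkn1c, which encodes an inhibitor of cyclin-dependent kinases and is expressed from the maternal chromosome, the treatments differed in the place of the summit and not in the presence of a peak. All 6 libraries had a peak that overlapped chr7:143459712-143460993. Its summit lay 193, 227 and 327 bp from the start in the ethanol libraries and 1057, 1073 and 1106 bp in the saline libraries. The ethanol summits were in an untranslated exon and introns, the saline summits in coding sequence, and the peaks spanned nearly the same stretch, 1033 to 1297 bp long in ethanol and 1116 to 1282 bp in saline libraries. The gap of 730 bp between the groups was the largest among the 172 downstream regions held by all 6 libraries. Gaps of that size or more occurred in 9 of the 10276 regions of the series held by all 6. Summits of the groups did not overlap in 16 of the 172 regions (9.30%), against 981 of 10276 in the series (9.55%), so that non-overlap in itself was as frequent here as elsewhere. A gap of at least 100 bp, a limit chosen after the values were seen, was found in Cdkn1c and in Sohlh2, a transcription factor gene of germ cells. Sohlh2 had summits at 420, 552 and 60 bp in ethanol and 1009, 1193 and 780 bp in saline libraries. Its peaks were 1401 to 1915 bp long in ethanol and 789 to 1473 bp in saline libraries. These 2 regions made up 1.16% of the 172, against 0.360% of the regions held by all 6 in the series. The downstream class was itself defined by summit distance, so these shares are not a fair comparison. Cdkn1c belonged to the class through its saline summits alone. Both regions had summit pileups of 29 to 59 tags and were not tested.

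Few downstream regions followed treatment in all libraries. All 3 ethanol libraries and no saline library had a peak in 7 of 684 regions (1.02%), against 1.49% of the 48853 regions of the series. All 3 saline libraries and no ethanol library had one in 2 (0.292%), against 0.108% of the series, or 53 regions. Counted in either direction without requiring all libraries, 314 regions (45.9%) were held by more ethanol than saline libraries and 96 (14.0%) by more saline than ethanol libraries, where the series had 51.8% and 14.7%.

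The 7 ethanol regions had weak to middling peaks. Gm13152 had folds of 6.11, 7.75 and 8.34 in ethanol libraries 1 to 3, with summits 519 to 601 bp from the start. The nearest peak of a saline library was 4672 bp away. Pcdhb14, a protocadherin of the beta cluster, had folds of 8.30, 7.80 and 7.86 at 1743 to 1814 bp, Tcf7l1 had 7.38, 6.68 and 7.52 at 1666 to 1771 bp, and Cdc14b had 6.65, 6.84 and 5.43 at 1744 to 1853 bp. The remaining 3 were in the lower part of their lists. BC027072 had folds of 4.86, 4.19 and 4.63, at percentiles 5.85 to 11.2 by q, Alpi 5.47, 4.52 and 4.26, at percentiles 0.284 to 5.62, and Zar1l, a relative of the oocyte gene Zar1, 7.48, 6.77 and 6.07, at percentiles 8.06 to 12.7. At Zar1l only ethanol library 3 had a downstream summit, and the other two had theirs 217 and 384 bp from the start.

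The 2 saline regions were of similar strength. The Snrpn and Snurf region had folds of 8.30, 8.10 and 7.48 in saline libraries 1 to 3, with pileups of 28, 32 and 23 tags and summits 888 to 914 bp from the start, in intron 1. The nearest peak of an ethanol library was 42579 bp away. I830012O16Rik had folds of 6.68, 7.18 and 6.33, with summits at 587, 565 and 495 bp. The counts rested on single libraries: without 1 of the 6, and with the other two of its treatment then enough, there were 10 to 24 ethanol regions and 2 to 7 saline regions. In lists of equal length 1 ethanol region remained, Gm13152, and both saline regions remained among 3. Of the 200 bases shown for Gm13152, 134 were repeat-masked, and its transcript was placed elsewhere in the reference. For I830012O16Rik 129 of the 200 bases were masked, and for Snrpn and Snurf 1. With downstream peaks alone counted, Ifnz, an interferon zeta gene, took the place of Zar1l and Cdkn1c that of I830012O16Rik. At Ifnz 1 saline library had a peak as well, annotated at -1424 bp from a start.

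**Figure D4:**
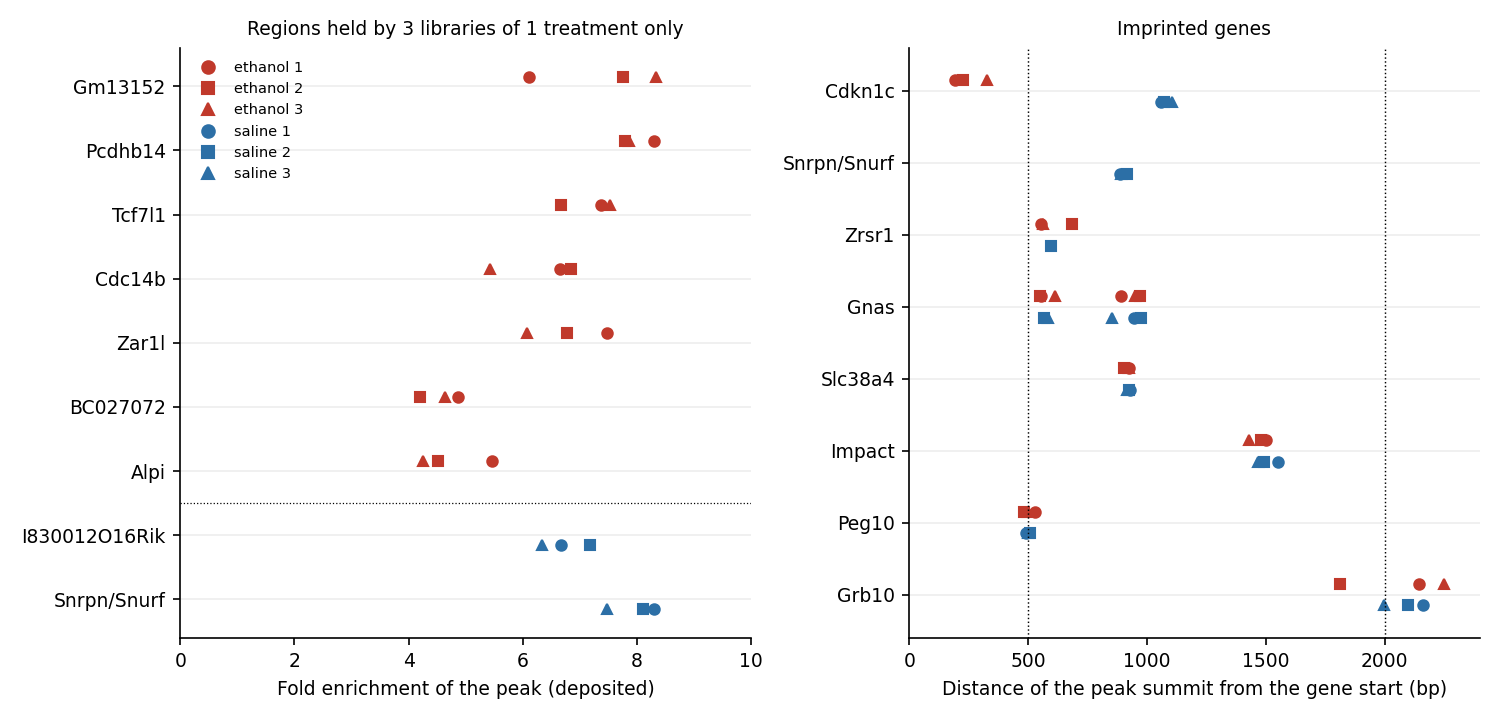
Left, the deposited fold enrichment (horizontal axis) of each library's peak in the 9 regions held by all 3 libraries of 1 treatment and none of the other, with 7 ethanol regions above the dotted line and 2 saline regions below it. Right, distance of the summit from the gene start in bp at 8 imprinted loci, where Cdkn1c summits sit at 193 to 327 bp in ethanol (red) and 1057 to 1106 bp in saline libraries (blue).

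In total the ethanol libraries had 308, 446 and 378 downstream peaks and the saline libraries 265, 323 and 306. The means were 377.3 ± 69.0 and 298 ± 29.8 (SD, n = 3 each), a ratio of 1.27, and the groups overlapped (two-sided exact permutation p = 0.2, adjusted p = 0.2 over 4 measures). As a share of all peaks the order was the other way: 1.33%, 1.28% and 1.33% in ethanol against 1.40%, 1.42% and 1.47% in saline libraries, with 95% Wilson intervals of single libraries between 1.17% and 1.65%. The groups did not overlap (difference -0.119 percentage points, exact permutation p = 0.1, the smallest 3 against 3 allows, adjusted p = 0.2). Of promoter-class peaks, 43.1%, 44.5% and 43.6% were downstream in ethanol against 45.3%, 46.1% and 45.4% in saline libraries (difference -1.86 points, exact permutation p = 0.1, adjusted p = 0.2). Median CpG density was 3.30, 3.13 and 3.10 per 100 bp in ethanol and 3.65, 3.24 and 3.41 in saline libraries, which overlapped (exact permutation p = 0.2, adjusted p = 0.2). In lists of equal length the downstream counts turned round, to 256, 244 and 258 peaks in ethanol and 265, 257 and 278 in saline libraries. Their shares of all peaks, 1.35%, 1.29% and 1.36% against 1.40%, 1.36% and 1.47%, overlapped. The share of promoter-class peaks still differed, by -1.11 points (exact permutation p = 0.1, again the smallest 3 against 3 allows, not adjusted).

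**Figure D5:**
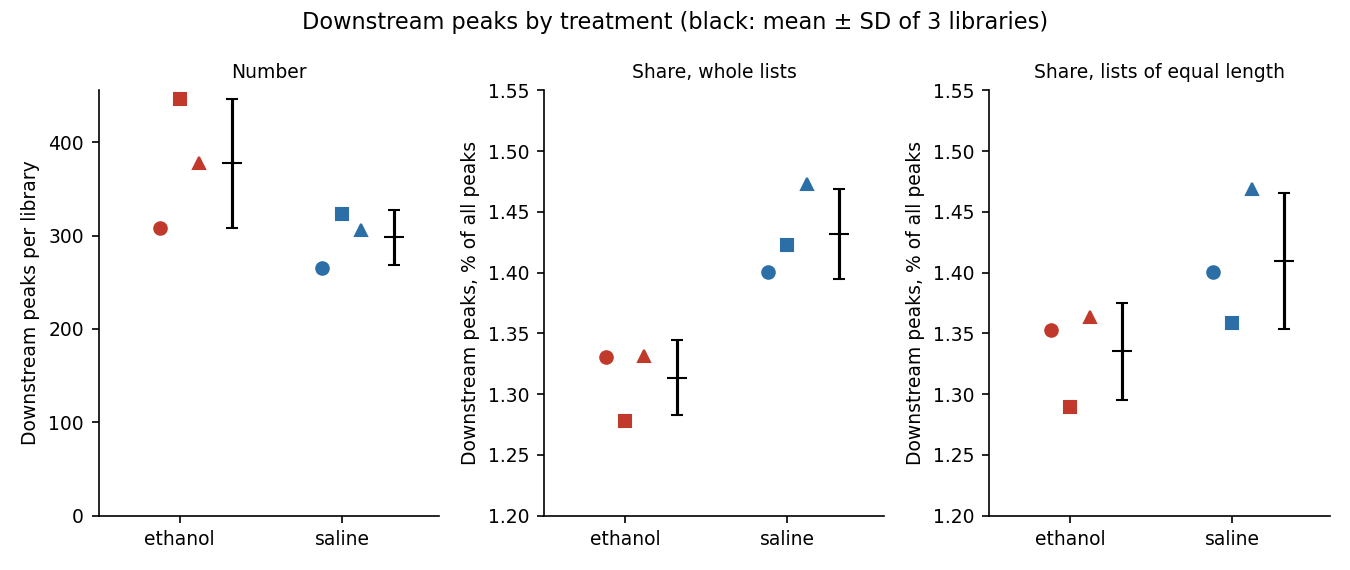
Downstream peaks of each library as a number, as a share of all its peaks, and as a share of its 18922 most significant peaks (vertical axes; the axes of shares do not start at 0), with the mean ± SD of 3 libraries in black. In whole lists the shares were 1.28% to 1.33% in ethanol (red) and 1.40% to 1.47% in saline libraries (blue), and in lists of equal length the ranges overlapped.

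Olfactory receptors, single-exon genes that are silent outside the nose for the most part, had downstream peaks at 32 of 1107 genes (2.89%), near the 3.20% of all coding genes. Of their regions 25 were in coding sequence, with a median summit 650.5 bp from the start. Olfr1388, Olfr523, Olfr325 and Olfr550 ranked highest among those with peaks in all 6 libraries. Olfr523 had 10.8-fold, 12.8-fold and 12.2-fold peaks in ethanol and 10.5-fold, 8.77-fold and 9.53-fold peaks in saline libraries, all in its coding exon. Olfr1388 and Olfr325 peaks lay outside their own RefSeq transcript. In the GENCODE annotation the Olfr1388 summits fell in an untranslated exon. The Zfp list, mostly DNA-binding zinc finger genes but taken by name and so holding the RNA-binding Zfp36 and Zfp36l3, had 14 of 395 members (3.54%), and 9 of these had a downstream peak in all 6 libraries. Beside Zfp768 and Gm13247 the highest were Zfp764, at 11.3-fold to 13.3-fold, and Zfp36l3, at 9.69-fold to 11.2-fold.

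Voltage-gated and other potassium channel genes, which set the excitability of neurons, had 8 of 94 members (8.51%), and all 8 regions lay in coding sequence. Kcnv2 and Kcnj11, a pore subunit of ATP-sensitive channels, had downstream peaks in all 6 libraries, Kcnj11 at 6.79-fold to 8.29-fold. Kcnd3 had a downstream summit in 4 libraries, Kcnj16 in 3, Kcnd2 and Kcne4 in 2, and Kcnb2 and Kcnh6 in 1. All 6 libraries had a peak in the Kcnd3 region, with summits from 409 to 580 bp in ethanol and 451 to 710 bp in saline libraries, on both sides of the 500 bp limit. Reproductive homeobox genes of the X chromosome had 7 of 31 members (22.6%). Of these Rhox13 had downstream summits in all 6 libraries, at 9.67-fold to 14.6-fold, and Rhox3a in 4, while Rhox2a, Rhox2e, Rhox3e, Rhox3g-ps and Rhox4f each had one in 1. The Rhox2a region was held by all 6, with summits from -57 to 283 bp in ethanol and 197 to 654 bp in saline libraries. Their close copies make the assignment of reads uncertain. Solute carriers, membrane transporters, had 12 of 375 (3.20%), with Slc15a3 and Slc38a4 in all 6 libraries and Slc7a7 and Slc5a10 in 5.

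Germline genes are silenced by promoter methylation in other tissues. Of 40, 29 had a peak within 500 bp of the start, where 407 genes in all had one, beside 21000 coding genes in the reference. This list was chosen with earlier results of these data known. A downstream peak was found at 2 (5%, against 3.20% of all coding genes), Pdha2 and Gm1564, which the reference names Meioc. Keratins and keratin-associated proteins had 7 of 109, held by at most 3 libraries each (1700011A15Rik, Gm11570, Krt40, Krt79, Krt83, Krtap13 and Krtap15). Histone genes had 2 of 68 (Hist1h4n and Hist2h2bb), defensins 2 of 70 (Defb23 and Defb35) and Mas-related receptors 1 of 20 (Mrgprh). No downstream peak was found at 352 vomeronasal receptors. None was found either at 39 Hox genes, 21 GABA receptor genes, 16 genes of the DNA methylation machinery or 20 housekeeping genes, lists too short for a 0 to be set apart from the 3.20% of all coding genes. Of 26 glutamate receptor genes 1 had a peak, Grin1, the obligatory subunit of NMDA receptors, in intron 1 at 6.32-fold to 7.20-fold, in 1 ethanol and 1 saline library. Of 51 markers of the cell types a hippocampal sample could hold, 1 (1.96%) had a downstream peak, against 3.20% of all coding genes: none at 12 neuronal, 11 oligodendrocyte lineage, 8 microglial, 7 endothelial and 5 choroid plexus genes, and 1 at 8 astrocyte genes, Aldh1l1, in 1 ethanol library. The lists report DNA and not expression, so they do not show which cells a sample held, nor check the labelled tissue.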

How the data were processed

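MeDIP-seq peak lists of 6 hippocampi, 3 from ethanol and 3 from saline pups, were analysed; samples were grouped by their labels. Per the labels and the submitters' processing notes, reads of 150 cycles were aligned to mm10 with Bowtie (Bowtie2 2.1.0 is named) and peaks were called in each library with MACS 2 at a stated q of 1e-4. In the deposited lists the smallest −log10 q, per the file headers the q-value of the peak, was 5.00 to 5.23. Deposited with each peak are the pileup signal at its summit, a coverage in tags, and the fold enrichment, a ratio to local background, both as the authors' caller gave them and not scaled between libraries. The lists hold no read counts. The IgG immunoprecipitation done in parallel was not analysed here, and whether a control entered the calling is not stated.

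Promoter rows with a summit more than 500 and up to 2000 bp after the start were kept, each peak counted once per library, and peaks sharing 1 bp merged. Summits were placed in GENCODE M21 and in their own RefSeq transcript on GRCm38; CpG, repeat share and sequence came from that genome. Groups were compared by exact permutation over the 20 divisions of the libraries, classes by exact sign-flip within libraries (64 patterns), with Benjamini-Hochberg adjustment over 4 and 6 tests. The code, in Python 3.11.15 with pandas 2.3.3, scipy 1.17.1 and pysam 0.24.0, was tested on simulated data. Intervals cover counting error alone. Named were all regions held by every library of 1 treatment and none of the other, the 10 best ranked in all 6, the peaks at either end of the window, and of each list every member up to 8 and otherwise 4; the remaining imprinted genes, Sohlh2 and the genes named as exceptions were chosen after their values were seen. The members and gene lists were chosen with earlier results of these data known. Sequences of 2 of the 9 regions held by 1 treatment are not reported here.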

Additional observations from a re-analysis of the deposited data

How the results depend on the processing

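Of the 12 results recomputed, 9 kept their direction and side of the threshold in lists of equal length. The number of downstream peaks turned to -14, ethanol minus saline (exact permutation p = 0.2), the difference in fold percentile between downstream and upstream peaks was 4.58 (exact permutation p = 0.0312), and the regions of ethanol libraries alone fell to 1. With summits more than 1000 bp from the start no region was held by saline libraries alone (0). At a −log10 q of 15 or more all 12 kept direction and side. Leaving out 1 library, downstream minus upstream peaks ranged from 129.2 to 135.8, CpG density against upstream from 1.24 to 1.38 and against within 500 bp from -0.783 to -0.714, the coding share from 41.2 to 43.3 points and the repeat share from -28.9 to -26.3 points. The exact permutation p was then 0.0625, the smallest 5 libraries allow, so these lost the threshold by construction. Regions of 1 treatment, which then needed only 2 libraries on that side, ranged from 10 to 24 for ethanol (24, 15 and 23 without ethanol 1, 2 and 3, and 19 and 12 without saline 2 and 3) and from 2 to 7 for saline (5 without ethanol 2, 7 and 5 without saline 1 and 3). The differences between treatments kept their direction, with 45 to 114 peaks. Without clustered protocadherins, an alternative chosen after seeing the data, the coding share differed by 37.4 points and CpG density against upstream by 1.11. With the replicate number as a replicate block the 4 differences between treatments stayed at 79.3 peaks, -0.119 and -1.86 points and -0.256 CpGs per 100 bp, each with an exact permutation p of 0.25, the smallest 3 pairs allow; same-numbered libraries did not deviate together (correlations of -0.000566, 0.0313 and -0.000727). Unknown depth limits every statement about a missing peak.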
